A study of Mus musculus with 21 samples.

Results

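Py117 and Py8119 are cell lines made from clones of mammary tumours of MMTV-PyMT mice, in which a mammary promoter drives the polyomavirus middle T oncogene. Per the design text, Py117 tumours are sensitive and Py8119 tumours resistant in their immune response to radiation, and the study asked how both behave in 1 shared microenvironment. Mixed tumours, labelled Py5050, grew from a 1:1 implant of both lines in a mammary fat pad of mice, and were set against tumours of Py117 cells alone and of Py8119 cells alone. Each of these 3 groups held 5 tumours, called biological replicates in the labels, so the comparison used 15 of the 21 arrays, and 3 cultures of each line served only to choose genes that tell the lines apart. All tumours and cultures were untreated, and tumours were taken when radiation would usually have been given. Each line is a clone, so a difference between lines is a difference between 1 clone and 1 other. Host strain, sex and age are not given in the sources used here.

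The question was how far the mixed tumours departed from additivity. A bulk tumour is a mixture of cancer cells, stroma and immune cells, and its RNA is the sum of what they contribute on the linear scale. If both lines, with the host cells each attracts, contributed equally, a gene in the mixed tumours would lie at the mean of the linear levels of the parental tumours. That mean, on the log2 scale, is called the 1:1 level here. The departure is the mean log2 signal of the mixed tumours minus the 1:1 level, so a departure of 1 is a doubling. Departures were tested with limma, and a gene was called where its p, adjusted by Benjamini and Hochberg's method across the 22180 genes, was under 0.05. In bulk tissue, fewer cells of a type and less RNA per cell cannot be told apart.

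Array medians lay between 5.24 and 5.53 on the log2 scale. Pairs of mixed tumours correlated across genes with r between 0.989 and 0.994, Py117 tumours with r between 0.969 and 0.989, and Py8119 tumours with r between 0.990 and 0.994. The median SD of a gene was 0.15 among mixed, 0.20 among Py117 and 0.15 among Py8119 tumours. Py117 tumour 3 had the lowest array weight, 0.258. Adipocyte genes differed among Py117 tumours, with a mean log2 signal over 15 genes of 8.51, 6.45, 6.44, 7.74 and 8.52, against 5.91 to 6.32 in mixed and 5.81 to 6.43 in Py8119 tumours. As a guide to background, the median log2 signal of 1394 olfactory and vomeronasal receptor genes was 3.27, with a 95th percentile of 5.31.

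Mixed tumours departed from the 1:1 level at 1275 genes upward (5.75% of those tested) and 2033 genes downward (9.17%), 14.9% in all. Most departures were small. The median size was 0.38 among genes above and 0.48 among genes below, with a median standard error of 0.10 and 0.11. A change of at least 2-fold was seen at 11 genes above and 298 genes below. Of the genes above the 1:1 level, 1234 had higher signal in Py8119 than in Py117 parental tumours, and of the genes below it 104 did. Among the 1394 receptor genes, 10 were called above (0.717%) and 46 below (3.3%). Without mixed tumour 1 the count of all genes above was 815.

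The split between directions depended on how the expected level was set. Calls above made up 38.5% of all calls against the mean of linear levels. Against the midpoint of the log2 means, which is lower wherever the parents differ, there were 1848 genes above and 1434 below, and calls above made up 56.3%. With dim genes left out there were 1466 above and 1472 below (49.9% above).

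**Figure D1:**
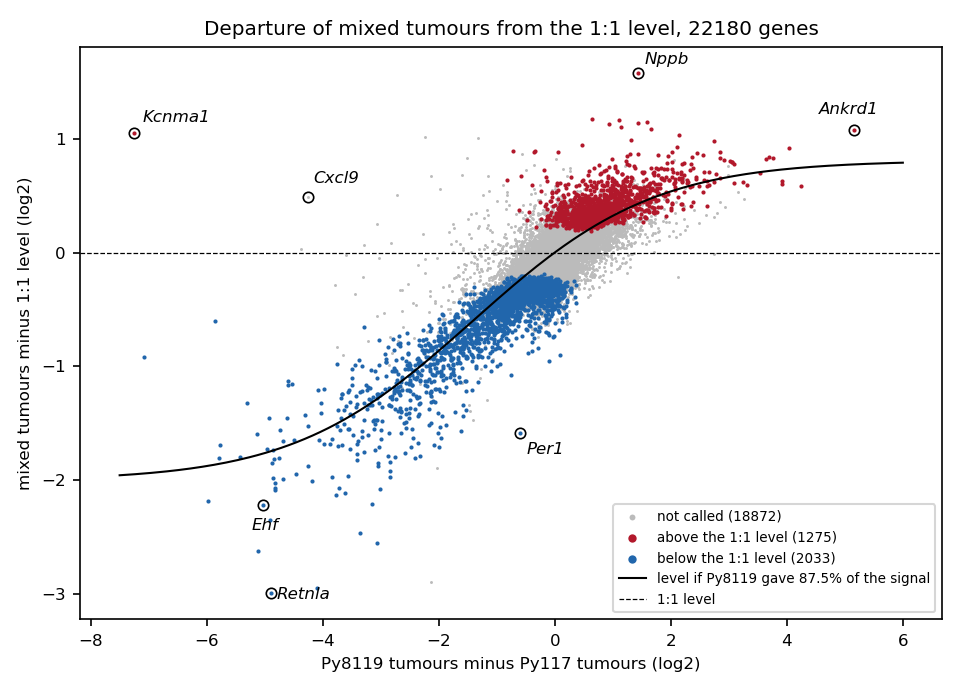
Each point is 1 of 22180 genes: the difference between Py8119 and Py117 tumours (x axis, log2) against the departure of mixed tumours from the 1:1 level (y axis, log2). The dashed line is the 1:1 level, the solid curve is the level expected if Py8119 gave 87.5% of the signal, and 1275 genes were called above (red) and 2033 below (blue).

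Genes that mark 1 line placed the mixed tumours close to Py8119. Line genes were 330 genes that differed by at least 2 on the log2 scale between the cultures, and in the same direction by at least 1 between the parental tumours. Their median position was 92.3%, 84.4%, 85.5%, 87.2% and 88.3% in mixed tumours 1 to 5, where 0% is the mean of Py117 and 100% the mean of Py8119 tumours on the linear scale and 50% is the 1:1 level. All 5 lay far above 50%, with a mean of 87.5% ± 3.08 (SD, n = 5). The 243 line genes higher in Py117 cells gave 86.9% ± 3.34, and the 87 higher in Py8119 cells gave 93.6% ± 4.38. This is a share of signal and not a count of cells. On the log2 scale the position was 75.4%.

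Genes were also split by the culture arrays alone, at the same difference of at least 2 on the log2 scale between cultures. All line genes are among them, so these counts are not separate from the positions above. Of 313 genes higher in cultured Py117 cells, 244 were called below the 1:1 level and 3 above, with a median departure of -0.88. Of 119 genes higher in cultured Py8119 cells, 77 were called above and 1 below, with a median of 0.53. The median over all genes was -0.05. Of the 16853 genes whose parental tumours lay within 0.5 of each other, 314 were called above and 595 below (1.86% and 3.53%).

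To see which departures were left when the parents were not weighted equally, each mixed tumour was also set against the parental levels mixed at its own position. This second expectation is called the level at the estimated share, and line genes were left out of its counts. Of 21850 genes, 5 were called above it (0.0229%) and 2 below (0.00915%). At an unadjusted p under 0.05 there were 725 above (3.32%) and 1691 below (7.74%). The 5 genes above were Cxcl9, Iigp1, AW112010, Cd48 and Abcg3, and the 2 below were Per1 and Depp1. The error of the share itself was not carried into this test, and no gene was called above it after leaving out Py117 tumour 2 or 5, any mixed tumour or any Py8119 tumour. Without Py117 tumour 3, 50 genes were above and 12 below. None of the 7 genes passed with an intensity trend and robust prior (adjusted p = 0.057 to 0.124) or with the adipocyte level of each tumour in the fit (adjusted p = 0.065 to 0.158). That level was 6.44 to 8.52 in Py117, 5.91 to 6.32 in mixed and 5.81 to 6.43 in Py8119 tumours. Here and below, the fit with it cannot fully separate the adipocyte level from the group.

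Epithelial genes lay below the 1:1 level. These genes encode the adhesion molecules, junctions and splicing factors that define epithelial cells, and in this pair of lines they are high in Py117. Of 29 measured, 23 were called below and none above, or 79.3% and 0%, against 9.17% and 5.75% of all genes. The epithelial genes had a median departure of -0.94, against -0.05 over all genes. Their median position by tumour was between 82.5% and 91.7%, from the 23 members that differed at least 2-fold between parental tumours.

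Epcam, an adhesion molecule of epithelial cells, read 7.24, 7.81, 8.39, 7.61 and 7.65 in mixed tumours, against 10.07, 10.27, 10.06, 10.23 and 10.73 in Py117 and 4.38, 5.39, 5.51, 5.09 and 5.30 in Py8119 tumours. All 5 mixed tumours lay between the parents, with no overlap on either side. The departure was -1.60 ± 0.21 (standard error, n = 5 per group), or 0.331 of the 1:1 level, with adjusted p = 6.8e-05. Ehf, an epithelial transcription factor of the ETS family, read 6.44, 7.07, 7.11, 6.93 and 6.55 in mixed, 9.53 to 10.33 in Py117 and 4.75 to 5.14 in Py8119 tumours. It had the lowest departure of the epithelial list, -2.22 ± 0.15 (adjusted p = 1.7e-07). Esrp1, which directs epithelial splicing, departed by -1.80 ± 0.13 (adjusted p = 2.7e-07), and mixed tumour 1, at 7.32, lay below the other 4, which read 7.93 to 8.18.

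Junction and protease genes moved with them. Cdh1, the E-cadherin of adherens junctions, departed by -1.38, Dsp, the desmosome's desmoplakin, by -1.99, and St14, the membrane protease matriptase, by -1.74. Plet1, a surface protein of epithelial progenitors in mice, departed by -2.13, and Perp, a desmosome component that p53 induces, by -1.39. The adjusted p of these 5 genes lay between 1.3e-07 and 4.1e-05. Against the log2 midpoint Epcam and Esrp1 turned to 0.036 and 0.13, and the calls of Cdh1 and St14 ended (adjusted p = 0.064 and 0.113).

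Genes of basal and myoepithelial cells, which line the outer layer of mammary ducts, were called below for 9 and above for 1 of 17. That is 52.9% and 5.88%, against 9.17% and 5.75% of all genes, with a median of -0.36. Itgb4, the integrin of hemidesmosomes, departed by -1.19 ± 0.15 (adjusted p = 4.7e-05). Serpinb5, the serpin maspin, departed by -1.32 ± 0.15 (adjusted p = 2.1e-05), and by 0.40 against the log2 midpoint (adjusted p = 0.059).

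Mesenchymal genes split. These include intermediate filaments, N-cadherin and matrix enzymes of motile or fibroblastic cells. Of 23 measured, 6 were called above and 3 below, with a median of 0.19. That is 26.1% and 13%, against 5.75% and 9.17% of all genes, so the share below was close to that of all genes. S100a4, which binds calcium and is high in motile cells, read 11.57, 11.24, 11.33, 11.20 and 11.19 in mixed, 7.27 to 7.73 in Py117 and 11.09 to 11.77 in Py8119 tumours. Mixed tumours overlapped Py8119 and lay clear of Py117, and the departure was 0.83 ± 0.12 (adjusted p = 0.00019). Cdh2, the N-cadherin, departed by 0.82 ± 0.17 (adjusted p = 0.0035), and Axl, a receptor kinase that binds Gas6, by 0.55 ± 0.11 (adjusted p = 0.0031). Vim, the filament vimentin, departed by 0.29 ± 0.08 (adjusted p = 0.014), a call that ended when all probe sets of the gene were averaged (adjusted p = 0.21).

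Lox, a collagen crosslinker, went the other way. It read 6.16, 7.97, 7.95, 7.10 and 6.33 in mixed, 9.11 to 10.34 in Py117 and 6.07 to 8.19 in Py8119 tumours. Mixed tumours lay within the Py8119 range and below every Py117 tumour, with a departure of -1.92 ± 0.37 (adjusted p = 0.0022). Cdh11, a cadherin of fibroblasts and mesenchymal cells, departed by -1.45 ± 0.34 (adjusted p = 0.0085), which was not called against the log2 midpoint (adjusted p = 0.087).

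Steap1 and Ankrd1, high in Py8119 tumours, had signals in mixed tumours that overlapped the Py8119 level. Steap1, a membrane metalloreductase-family protein, read 8.21, 8.36, 8.50, 8.17 and 8.13 in mixed, 5.14 to 5.59 in Py117 and 7.95 to 8.33 in Py8119 tumours. Ankrd1, an ankyrin-repeat protein known as a target of YAP, read 11.12, 11.36, 11.21, 11.20 and 11.29 in mixed, 5.30 to 6.45 in Py117 and 10.90 to 11.27 in Py8119 tumours. Both overlapped Py8119 tumours and were far from Py117 tumours. Their departures were 0.98 ± 0.10 (adjusted p = 5.7e-06) and 1.08 ± 0.15 (adjusted p = 0.00014).

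Kcnma1, the pore subunit of the large-conductance calcium-activated potassium channel, had signals in mixed tumours that overlapped those of Py117 tumours. It read 13.36, 13.43, 13.51, 13.44 and 13.43 in mixed tumours, against 13.42, 13.40, 13.34, 13.32 and 13.42 in Py117 and 5.94, 5.87, 5.93, 6.71 and 6.18 in Py8119 tumours. Mixed and Py117 tumours overlapped, and all 10 lay more than 6 log2 units above the Py8119 tumours. The departure was 1.05 ± 0.12 (adjusted p = 2.6e-05). As a line gene it was not tested at the estimated share, where it lay 3.03 above the expected level. These values are near the top of the array's signal range, and compression there was not tested. A second probe set for the gene averaged 4.00 in mixed, 4.35 in Py117 and 4.13 in Py8119 tumours, within the background range.

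**Figure D2:**
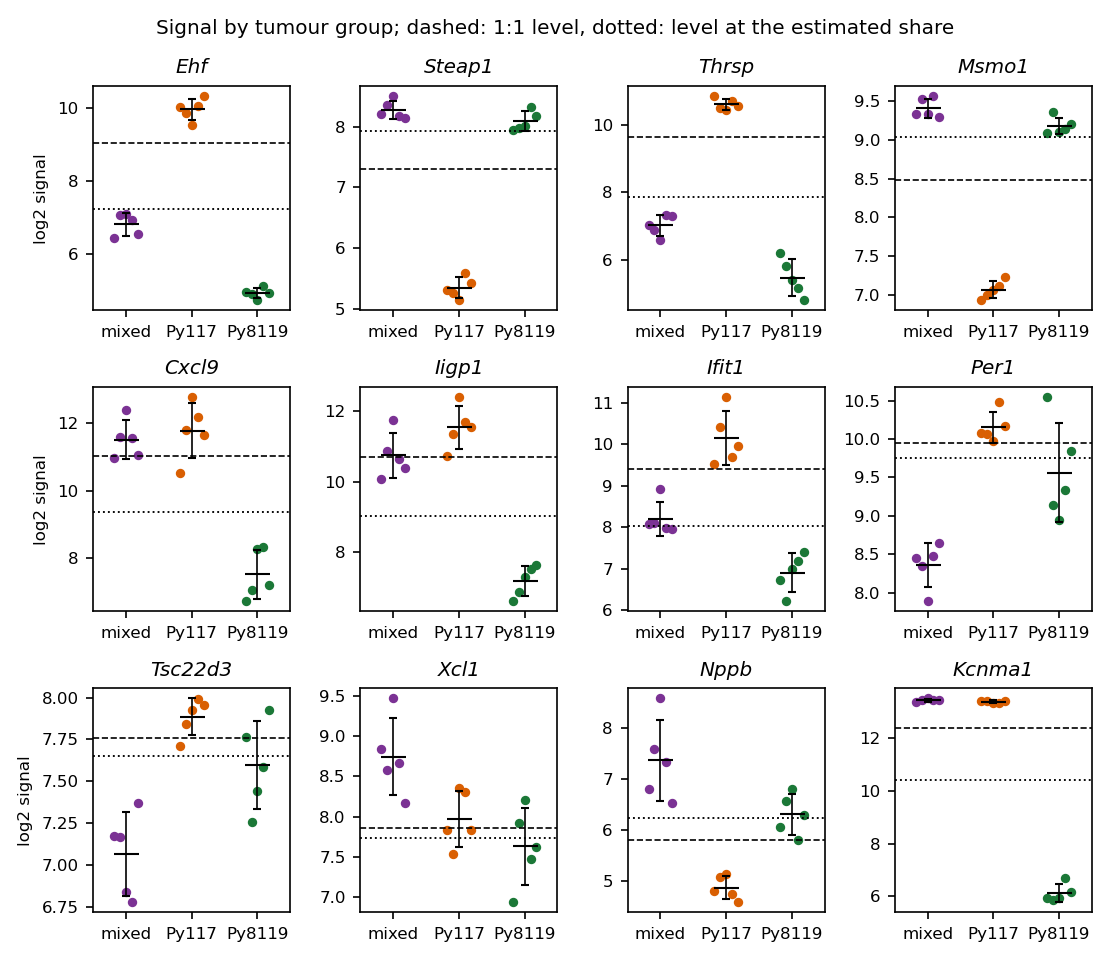
Log2 signal of 12 genes in each tumour (points), with group mean and SD (bars, n = 5), for mixed, Py117 and Py8119 tumours. The dashed line is the 1:1 level and the dotted line the level at the estimated share: Ehf, Thrsp and Ifit1 lay below the dashed line, Steap1, Msmo1, Nppb, Xcl1 and Kcnma1 above it, and Per1 and Tsc22d3 below both lines.

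Genes of stromal cell types departed in the same direction as the epithelial genes. Endothelial cells line vessels, pericytes wrap them and fibroblasts lay down matrix, and these cells come from the host mouse. In bulk RNA the signal of such genes was not assigned to host or cancer cells. All 20 endothelial, 9 of 10 pericyte and 23 of 24 fibroblast and matrix genes were not line genes. Of 20 endothelial genes, 15 were called below and none above, with a median of -0.62. Of 10 pericyte genes, 6 were called below (median -0.44), and of 24 fibroblast and matrix genes 11 (median -0.77). The shares called below were 75%, 60% and 45.8%, and none was called above, against 9.17% and 5.75% of all genes. Without mixed tumour 4, 3 pericyte genes were called below. The median positions of the endothelial, pericyte and fibroblast lists were 87.9%, 90.5% and 97.1%. They came from the 14, 3 and 17 members that differed at least 2-fold between parental tumours. When the adipocyte level of each tumour was added to the fit, 9 endothelial and 12 fibroblast genes were called below, with medians of -0.35 and -1.05.

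Cd34, a sialomucin of endothelial and progenitor cells, read 7.53, 7.68, 7.52, 7.60 and 7.76 in mixed, 9.15 to 9.63 in Py117 and 7.03 to 7.93 in Py8119 tumours. Mixed tumours lay within the Py8119 range and below every Py117 tumour, with a departure of -1.08 ± 0.12 (adjusted p = 1.9e-05). Emcn, the endothelial mucin endomucin, departed by -1.02 and Tek, the angiopoietin receptor, by -1.12. Mmrn2, an endothelial matrix protein, departed by -0.88. Mcam, an adhesion molecule of pericytes and endothelium, departed by -0.79. The adjusted p of these 4 genes lay between 2e-06 and 0.00072.

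Among matrix genes, Mfap5, a microfibril protein, departed by -1.69 ± 0.28 (adjusted p = 0.00053), Dpt, dermatopontin, by -1.53 ± 0.22 (adjusted p = 0.00013) and Col14a1, a fibril-associated collagen, by -1.34 ± 0.20 (adjusted p = 0.00024). Eln, elastin, read 6.73, 7.57, 6.69, 7.36 and 7.19 in mixed, 8.88 to 10.87 in Py117 and 6.67 to 7.39 in Py8119 tumours. Its departure was -2.20 ± 0.28 (adjusted p = 4.7e-05), and mixed tumours overlapped Py8119. Cilp, a cartilage and matrix protein, departed by -2.46 ± 0.23 (adjusted p = 2.4e-06). At the estimated share its departure of -1.07 did not pass the test (adjusted p = 0.093).

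Of 15 adipocyte genes, 7 were called below and none above, or 46.7% and 0%, against 9.17% and 5.75% of all genes. The adipocyte genes had a median departure of -0.95. Their median position was 99.6%, with all 5 mixed tumours between 96.7% and 103.6%. Thrsp, a nuclear protein of lipogenesis, read 7.04, 6.90, 6.59, 7.34 and 7.29 in mixed, 10.44 to 10.85 in Py117 and 4.82 to 6.20 in Py8119 tumours. It lay between the parents without overlap, and departed by -2.62 ± 0.20 (adjusted p = 4.3e-07). Lpl, the lipase of fat capillaries, departed by -1.79 ± 0.37 (adjusted p = 0.0032), while Py117 tumours ranged from 7.28 to 9.98. The number of adipocyte genes called rested on single Py117 tumours: it was 14 without Py117 tumour 2 and 13 without Py117 tumour 3. With the adipocyte level in the fit, 2 were called and the median was near 0, as that fit is built to give, and the call of Lpl ended (adjusted p = 0.134).

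**Figure D3:**
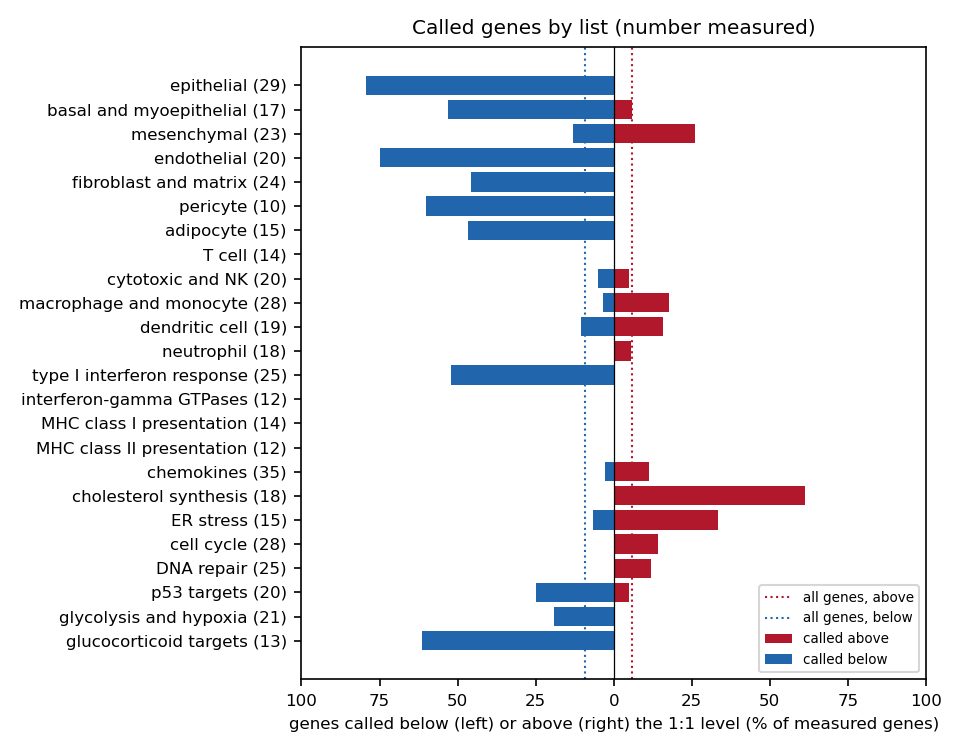
Share of each gene list called below (blue, left) or above (red, right) the 1:1 level, in percent of measured members, with their number in brackets. Dotted lines mark the same shares over all genes, 9.17% and 5.75%: epithelial and endothelial lists reach furthest left and cholesterol synthesis furthest right.

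Interferon genes were read as 2 lists, which stood at different positions. Type I interferons induce antiviral genes through the ISGF3 complex, and interferon gamma, made by T and NK cells, induces GTPases, antigen presentation and the chemokines Cxcl9 and Cxcl10. Of 25 type I interferon response genes, 13 were called below the 1:1 level and none above, with a median of -0.58 and a median position of 82.5%. None of 12 interferon-gamma GTPases was called in either direction, against 5.75% of all genes above and 9.17% below. Their median was -0.13 and their median position 59.1%, and without Py117 tumour 3 there were 2 called above. The GTPase median lay between -0.34 and 0.22 when any single tumour was left out, and was -0.70 with the adipocyte level in the fit, against -0.96 for the type I list in that fit. Members of both lists are induced by either interferon, so the lists are not separate pathways.

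Ifit1, an antiviral RNA-binding protein, read 8.07, 8.10, 8.92, 7.98 and 7.95 in mixed tumours, against 9.53, 10.42, 11.14, 9.68 and 9.96 in Py117 and 6.72, 6.22, 6.99, 7.19 and 7.41 in Py8119 tumours. Mixed tumours lay between the parents without overlap, and mixed tumour 3 was the highest of them. The departure was -1.20 ± 0.27 (adjusted p = 0.0054). Irf7, a transcription factor of the interferon loop, departed by -1.26, Cmpk2, a mitochondrial nucleotide kinase, by -1.34 and Rsad2, the antiviral enzyme viperin, by -1.23. The adjusted p of these 3 lay between 0.0018 and 0.01. None of the 4 genes was called against the log2 midpoint (adjusted p = 0.313 to 0.397). With the adipocyte level in the fit, 20 of the 25 list members were called below.

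Cxcl9, the chemokine that draws CXCR3-bearing T cells, stood high in mixed tumours. It read 10.98, 11.58, 12.39, 11.54 and 11.05 in mixed tumours, against 10.52, 11.78, 12.76, 12.18 and 11.64 in Py117 and 6.73, 7.06, 8.29, 8.33 and 7.20 in Py8119 tumours. Mixed tumours overlapped Py117 tumours and were above every Py8119 tumour. Against the 1:1 level the departure of 0.49 ± 0.37 did not pass the test (adjusted p = 0.40). Against the level at the estimated share it was 2.14 ± 0.34 higher (adjusted p = 0.041), a call that ended when any mixed or Py8119 tumour was left out (adjusted p = 0.058 to 0.159).

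Iigp1, an interferon-inducible GTPase that attacks the vacuoles of parasites in mice, read 10.07, 10.89, 11.76, 10.64 and 10.38 in mixed, 10.72, 11.35, 12.41, 11.71 and 11.55 in Py117 and 6.61, 6.87, 7.28, 7.51 and 7.64 in Py8119 tumours. Its departure from the 1:1 level, 0.03 ± 0.30, did not pass (adjusted p = 0.95), and it was 1.71 ± 0.28 above the level at the estimated share (adjusted p = 0.041). AW112010, an interferon-induced transcript of mouse immune cells, read 9.34 to 10.77 in mixed, 9.21 to 10.85 in Py117 and 7.11 to 8.20 in Py8119 tumours. Its departures were 0.68 ± 0.28 from the 1:1 level (adjusted p = 0.11) and 1.63 ± 0.26 at the estimated share (adjusted p = 0.041). Cxcl10, a second CXCR3 ligand, had 0.55 ± 0.38 and 1.58 ± 0.35 on the same 2 measures and passed neither test (adjusted p = 0.34 and 0.15). Without Py117 tumour 3, Cxcl10 and AW112010 were called above the 1:1 level (adjusted p = 0.0043 and 0.014), as they were with array weights (adjusted p = 0.037 and 0.027). Against the log2 midpoint all 4 genes were called above: Cxcl9 departed by 1.86 (adjusted p = 0.0013), Iigp1 by 1.39 (0.0021), AW112010 by 1.15 (0.0067) and Cxcl10 by 1.19 (0.030). The calls of Iigp1 and AW112010 at the estimated share ended without any single mixed or Py8119 tumour, as for Cxcl9.

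At the estimated share, the interferon-gamma GTPases had a median departure of 1.03, against -0.04 over all genes, and 11 of 12 were above it at an unadjusted p under 0.05, against 3.32% of all genes. The median lay between 0.83 and 1.23 when any single tumour was left out, and was 0.70 with the adipocyte level in the fit. For 14 genes of MHC class I presentation the median was 0.54 and 8 were above at that p. For 12 genes of MHC class II presentation it was 0.41, with 7 above. The type I interferon genes had a median of 0.21, with 8 of 25 above.

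The upstream sequences of these genes are shown because the lists are described as groups and many interferon targets carry a known element. The interferon-stimulated response element was searched as 2 copies of GAAA with any 2 bases between them, on both strands, in the 250 bases before and 50 bases after each RefSeq gene start (GRCm38.p6). It was found at 6 of 6 interferon-gamma GTPase genes with a sequence, 10 of 18 type I interferon response genes and 3 of 11 MHC class I presentation genes, against 3.99% of 27025 genes. The 180 bases before the start are printed 5′ to 3′ on the gene's strand, with matches on either strand in capitals, for Igtp (chr11:58199376-58199555, plus strand), Irgm2 (chr11:58214797-58214976, plus strand) and Ifit1 (chr19:34640709-34640888, plus strand).
Igtp: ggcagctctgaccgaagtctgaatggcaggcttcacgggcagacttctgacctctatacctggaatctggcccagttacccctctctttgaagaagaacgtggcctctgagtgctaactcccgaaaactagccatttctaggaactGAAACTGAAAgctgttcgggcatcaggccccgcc
Irgm2: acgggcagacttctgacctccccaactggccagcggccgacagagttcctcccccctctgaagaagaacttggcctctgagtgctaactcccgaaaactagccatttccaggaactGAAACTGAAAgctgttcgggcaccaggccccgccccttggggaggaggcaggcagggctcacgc
Ifit1: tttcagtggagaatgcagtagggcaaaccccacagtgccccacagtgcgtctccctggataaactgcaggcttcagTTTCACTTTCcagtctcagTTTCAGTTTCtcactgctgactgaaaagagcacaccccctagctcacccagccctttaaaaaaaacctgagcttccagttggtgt
Igtp and Irgm2 each carry 1 match, 34 and 64 bases before the start, and Ifit1 carries 2, with the first at 104 bases. A match is a description of letters and not a shown binding site.

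Igtp, an immunity-related GTPase, read 8.86, 9.62, 10.82, 9.62 and 9.30 in mixed, 9.64 to 11.81 in Py117 and 6.77 to 7.61 in Py8119 tumours. Irgm2, a regulator of the same GTPase family, read 8.31, 9.04, 10.04, 9.07 and 8.70 in mixed, 9.53 to 11.13 in Py117 and 6.41 to 6.996 in Py8119 tumours. Mixed tumour 3 was the highest and mixed tumour 1 the lowest of the mixed tumours for both. Neither departure from the 1:1 level passed the test (-0.21 ± 0.33 with adjusted p = 0.71, and -0.37 ± 0.28 with adjusted p = 0.39). These genes belong to a family of similar members, and cross-reading of probes between them was not tested.

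B2m, the light chain of MHC class I, read 13.01, 13.16, 13.29, 13.15 and 13.15 in mixed, 13.14 to 13.49 in Py117 and 12.87 to 12.996 in Py8119 tumours. It did not pass the test, with a departure of 0.01 ± 0.08 (adjusted p = 0.96). Cd274, the checkpoint ligand PD-L1, read 7.86, 8.42, 9.78, 8.55 and 7.77 in mixed, 7.32 to 9.23 in Py117 and 7.15 to 7.35 in Py8119 tumours. Mixed tumours were all above Py8119 tumours and overlapped Py117 tumours, and the departure of 0.59 ± 0.30 passed only without Py117 tumour 3 (adjusted p = 0.19 with all tumours, 0.039 without it).

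Mixed tumour 3 had the highest mean of the mixed tumours for both interferon lists, both MHC lists, the T cell list and the cytotoxic and NK list. It was also the highest for other lists, among them macrophage genes, at 9.27 against 8.83 to 8.98 in the other mixed tumours, glycolysis and hypoxia genes, at 9.28 against 8.79 to 9.11, and endoplasmic reticulum stress genes, at 9.02 against 8.71 to 8.89. For B and plasma cell genes it was not, with 5.47 against 5.48 in mixed tumour 2. The mean log2 signal of the T cell list was 6.25, 6.36, 6.86, 6.38 and 6.37 in mixed tumours 1 to 5, against 6.56, 6.36, 6.70, 7.44 and 7.21 in Py117 and 5.73 to 5.90 in Py8119 tumours. The mean of the interferon-gamma GTPases was 7.85, 8.42, 9.48, 8.50 and 8.11 in mixed, 8.11, 8.80, 10.33, 9.29 and 8.88 in Py117 and 6.21 to 6.57 in Py8119 tumours. The position of mixed tumour 3 on the GTPase list was -7.09%, near the Py117 mean, while the other 4 lay between 58.9% and 78.3%. On line genes mixed tumour 3 stood at 85.5%, within the range of the others.

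**Figure D4:**
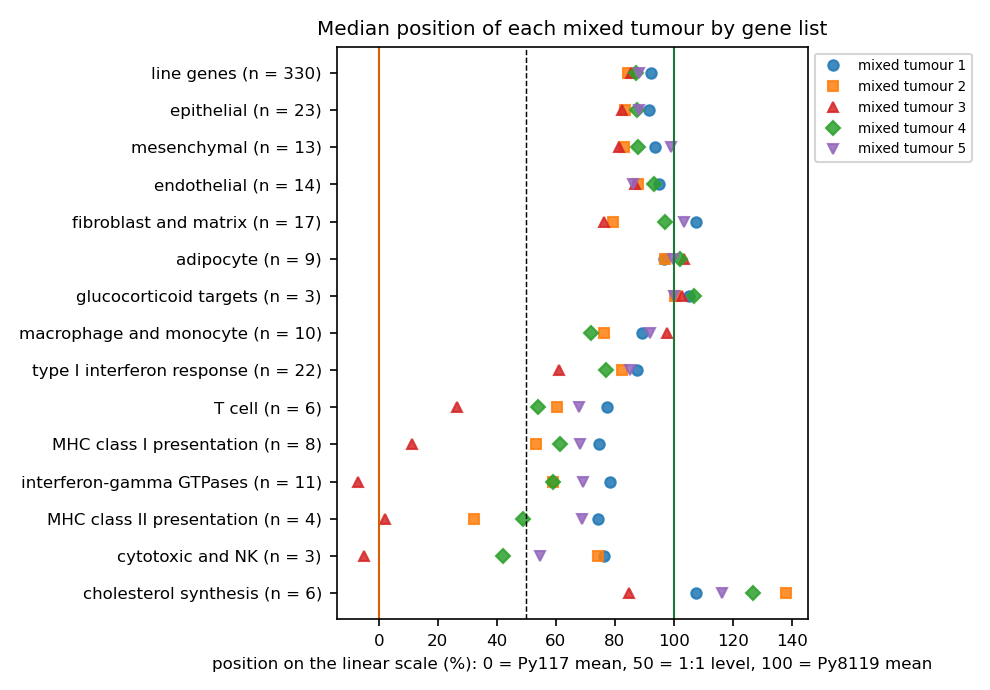
Median position of each mixed tumour for each gene list, on the linear scale in percent, where 0 is the Py117 mean, 50 the 1:1 level and 100 the Py8119 mean; only members whose parental tumours differed at least 2-fold entered (number in brackets). Line genes lay between 84.4% and 92.3%, while mixed tumour 3 lay at -7.09% for interferon-gamma GTPases, 11.1% for MHC class I and 2.13% for MHC class II presentation.

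Of T cell genes 0% were called above and 0% below the 1:1 level, and of cytotoxic and NK genes 5% and 5%. Among all genes 5.75% were above and 9.17% below. With lists of 14 and 20 genes, these counts are not read as a difference from all genes. T cell genes, which encode the receptor complex and its signalling partners, had 0 of 14 called and a median of -0.08, and 6 of 14 were above the level at the estimated share at an unadjusted p under 0.05, against 3.32% of all genes. Of 20 cytotoxic and NK genes, 1 was called above and 1 below (median 0.27), with 5 above after leaving out Py117 tumour 3 or 4, and 15 were above at the estimated share at that p. Cd8a, the coreceptor of cytotoxic T cells, read 6.10, 6.54, 6.89, 6.67 and 6.30 in mixed, 5.91 to 8.06 in Py117 and 5.25 to 5.69 in Py8119 tumours (departure -0.10 ± 0.25, adjusted p = 0.81). Foxp3, the regulator of regulatory T cells, read 5.83 to 6.05 in mixed, 6.20 to 7.41 in Py117 and 5.26 to 5.83 in Py8119 tumours. Every mixed tumour lay below every Py117 tumour for Foxp3, but the departure of -0.35 ± 0.16 missed the threshold (adjusted p = 0.14).

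Xcl1, a chemokine that NK and CD8 T cells make to draw dendritic cells, read 8.85, 8.58, 9.48, 8.67 and 8.17 in mixed, 7.83, 7.53, 8.36, 8.31 and 7.83 in Py117 and 6.93, 7.91, 8.20, 7.47 and 7.62 in Py8119 tumours. The 4 highest mixed tumours lay above all 10 parental tumours. The departure was 0.89 ± 0.21, or 1.86 of the 1:1 level (adjusted p = 0.0076). Mixed tumours were also higher than each parent, by 0.78 over Py117 (adjusted p = 0.016) and 1.12 over Py8119 tumours (adjusted p = 0.017).

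Cd48, a surface ligand of leukocytes for the receptor 2B4, read 8.22, 8.01, 8.45, 8.09 and 7.99 in mixed, 7.41, 7.62, 7.95, 7.83 and 7.78 in Py117 and 7.38, 7.34, 7.60, 7.51 and 7.57 in Py8119 tumours. All 5 mixed tumours were above all 10 parental tumours, with a departure of 0.54 ± 0.10 (adjusted p = 0.0011). At the estimated share the departure was 0.64 ± 0.10 (adjusted p = 0.041). Abcg3, an ABC transporter of rodents, departed by 0.59 ± 0.11 (adjusted p = 0.002) and by 0.75 ± 0.12 at the estimated share (adjusted p = 0.041). As for Cxcl9, both calls at the estimated share ended without any single mixed or Py8119 tumour. Pik3cd, the leukocyte PI3-kinase subunit, departed by 0.39 ± 0.08 (adjusted p = 0.0022), and all 5 mixed tumours, at 7.22 to 7.51, were above the parental tumours, which reached 7.13 in Py117 and 7.10 in Py8119. Tec, a kinase of haematopoietic cells, departed by 0.41 ± 0.10 (adjusted p = 0.014).

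Of 28 macrophage and monocyte genes, 5 were called above the 1:1 level and 1 below, which is 17.9% and 3.57%, against 5.75% and 9.17% of all genes. Their median was 0.18, or 0.093 without mixed tumour 3, and their median position 89.1%. Fcgr3, an Fc receptor of phagocytes, read 10.11, 10.22, 10.39, 9.96 and 9.92 in mixed, 8.69 to 9.35 in Py117 and 9.67 to 10.01 in Py8119 tumours. Its departure was 0.59 ± 0.11 (adjusted p = 0.0017). Msr1, a scavenger receptor, departed by 0.61 ± 0.14 (adjusted p = 0.0059), and Ccr2, the monocyte receptor for Ccl2, by 0.50 ± 0.14 (adjusted p = 0.019), a call that ended without mixed tumour 4 (adjusted p = 0.058). Cd14, the lipopolysaccharide coreceptor, went down, with a departure of -0.53 ± 0.10 (adjusted p = 0.0019). Cd83, a marker of mature dendritic cells, departed by 0.53 ± 0.13 (adjusted p = 0.012).

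Among ligands, 4 of 35 chemokines were called above and 1 below (11.4% and 2.86%, against 5.75% and 9.17% of all genes), with a median of 0.11. That count above was 10 without Py117 tumour 3 and 2 without mixed tumour 1 or 4 or Py8119 tumour 1 or 2. Of 30 cytokines and growth factors 3 were called in each direction, which is close to the shares over all genes, with 7 above without Py117 tumour 4, 5 above without Py117 tumour 5 and 5 below without Py117 tumour 3. Ccl7, a monocyte chemokine, read 10.21, 9.96, 10.80, 10.22 and 9.86 in mixed, 7.28 to 9.30 in Py117 and 9.06 to 9.89 in Py8119 tumours. The lowest mixed tumour fell within the Py8119 range, and the departure was 1.15 ± 0.27, or 2.22 of the 1:1 level (adjusted p = 0.0073). Ccl2, which shares the receptor Ccr2, read 10.12, 9.98, 10.68, 10.16 and 9.98 in mixed, 6.66, 7.51, 9.47, 6.96 and 7.47 in Py117 and 9.35 to 10.02 in Py8119 tumours. Its departure of 1.03 ± 0.33 was near the threshold (adjusted p = 0.042) and its call was lost under 15 of 29 other settings, among them the absence of any single mixed tumour (adjusted p = 0.063 to 0.10).

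Csf1, the macrophage growth factor, read 10.36 to 10.75 in mixed, 8.54 to 9.21 in Py117 and 10.49 to 10.86 in Py8119 tumours, with a departure of 0.52 ± 0.11 (adjusted p = 0.0029). Il34, the other ligand of its receptor, departed by 0.43 ± 0.09 (adjusted p = 0.0032). Csf1r, the receptor of both, had a departure of 0.18 ± 0.10 that did not pass (adjusted p = 0.23). Csf2, the granulocyte-macrophage factor, departed by 0.76 ± 0.14 (adjusted p = 0.0015), with mixed signals of 4.95 to 5.45 against 3.62 to 4.29 in Py117 and 4.35 to 5.18 in Py8119 tumours, around the background level. A second Csf2 probe set gave -0.30. Pros1, protein S, a ligand of Axl-family receptors, departed by -0.99 ± 0.21 (adjusted p = 0.0036), a call that ended with the adipocyte level in the fit (adjusted p = 0.099) and against the log2 midpoint (adjusted p = 0.072).

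Sterol synthesis genes lay above the 1:1 level. The enzymes of this pathway make cholesterol from acetyl-CoA and are induced by SREBP2 when sterol is low. Of 18 measured, 11 were called above and none below, with a median of 0.37. That is 61.1% and 0%, against 5.75% and 9.17% of all genes. For the 6 members that differed at least 2-fold between parental tumours, the positions were 107.6%, 138.1%, 84.8%, 126.8% and 116.5% in mixed tumours 1 to 5. At the estimated share 15 of 18 lay above the expected level. At an unadjusted p under 0.05, 7 did so, against 3.32% of all genes, but none was called.

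Msmo1, the sterol C4-methyl oxidase, read 9.34, 9.52, 9.34, 9.57 and 9.30 in mixed, 6.93 to 7.23 in Py117 and 9.09, 9.36, 9.10, 9.14 and 9.21 in Py8119 tumours. Mixed tumours overlapped the highest Py8119 tumour alone. The departure was 0.93 ± 0.08, or 1.90 of the 1:1 level (adjusted p = 1.2e-06). Sqle, squalene epoxidase, departed by 0.72 ± 0.09, Cyp51, lanosterol demethylase, by 0.72 ± 0.12, and Fdps, farnesyl diphosphate synthase, by 0.70 ± 0.09. Their adjusted p lay between 5.9e-05 and 0.00062.

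The CCAAT box, bound by NF-Y, was searched as CCAAT on both strands in the same windows, because NF-Y is known to act beside SREBP2 at these genes. It was found at 15 of 15 cholesterol synthesis genes with a sequence, against 41.1% of all genes. The box is not particular to this list: it was also found at 8 of 11 MHC class I presentation genes. Of type I interferon response genes 6 of 18 had it, and of interferon-gamma GTPase genes 2 of 6. The 180 bases before the start of Msmo1 (chr8:64733579-64733758, minus strand, GRCm38.p6) hold 3 matches, in capitals.
Msmo1: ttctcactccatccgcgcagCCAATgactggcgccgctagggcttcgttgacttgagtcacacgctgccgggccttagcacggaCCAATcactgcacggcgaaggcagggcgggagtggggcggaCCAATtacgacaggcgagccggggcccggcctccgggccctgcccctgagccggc

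Endoplasmic reticulum stress genes had 5 of 15 called above and 1 below (median 0.20), or 33.3% and 6.67%, against 5.75% and 9.17% of all genes. Creld2, a disulfide isomerase induced by this stress, read 9.46, 9.56, 9.68, 9.75 and 9.67 in mixed, 9.16 to 9.39 in Py117 and 9.04 to 9.35 in Py8119 tumours. All 5 mixed tumours lay above all 10 parental tumours, with a departure of 0.38 ± 0.07 (adjusted p = 0.0023). Sdf2l1, a component of the chaperone complex of the same compartment, departed by 0.43 ± 0.10 (adjusted p = 0.0054). Asns, asparagine synthetase, departed by 0.51 ± 0.10 (adjusted p = 0.0026) and overlapped Py8119 tumours, at 9.24 to 9.69 in mixed against 9.42 to 9.61 in Py8119 tumours.

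Cell cycle genes had 4 of 28 called above and none below, or 14.3% and 0%, against 5.75% and 9.17% of all genes. Their median was 0.15, with mean signals of 8.98 to 9.21 in mixed, 8.44 to 8.997 in Py117 and 9.12 to 9.31 in Py8119 tumours. The count was 1 without mixed tumour 1 or 4 and 2 without mixed tumour 2 or 5 or Py8119 tumour 2. Top2a, topoisomerase II alpha, departed by 0.33 ± 0.08 (adjusted p = 0.0087). Cdk1, the mitotic kinase, departed by 0.33 ± 0.10 (adjusted p = 0.027), a call that ended without mixed tumour 1, 2 or 4 (adjusted p = 0.097, 0.073 and 0.058). Of 25 DNA repair genes 3 were called above and none below (median 0.20), or 12% and 0%, beside the same shares over all genes. The count above was 1 after leaving out Py117 tumour 2, any mixed tumour or Py8119 tumour 1, 2 or 5. It was 8 and 5 after leaving out Py117 tumour 4 and 3. Among the 3 was Atm, the kinase that signals double-strand breaks, with 0.41 ± 0.08 (adjusted p = 0.0031).

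Of 20 p53 targets, 5 were called below and 1 above (median -0.10), or 25% and 5%, against 9.17% and 5.75% of all genes. The count below was 3 after leaving out Py117 tumour 2 or 3, mixed tumour 1, 2, 4 or 5, or Py8119 tumour 1 or 2. Of 21 glycolysis and hypoxia genes 4 were called below and none above (median -0.01), or 19% and 0%, beside the same shares over all genes. Without Py117 tumour 3, 4 of them were above. Trp53inp1, a p53-induced protein of stress responses, departed by -0.87 ± 0.13 (adjusted p = 0.00024). At the estimated share the p53 targets had a median of 0.02. At an unadjusted p under 0.05, 1 of 18 was above that level and 1 below, against 3.32% and 7.74% of all genes.

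Glucocorticoid targets lay below the 1:1 level, and the means of Per1 and Tsc22d3 lay below those of both parental groups. A mixed mean below both was common, at 7493 of 22180 genes and at 902 of the 2033 called below the 1:1 level. The adjusted test for genes outside both parents, described below, called none. Glucocorticoids act through a nuclear receptor that directly induces Per1, Tsc22d3, Zbtb16 and Klf9. Of 13 glucocorticoid targets, 8 were called below and none above, with a median of -0.65. That is 61.5% and 0%, against 9.17% and 5.75% of all genes. At the estimated share all 12 tested were below the expected level, with a median of -0.38 against -0.04 over all genes. At an unadjusted p under 0.05, 7 of the 12 were below, against 7.74% of all genes.

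Per1, a repressor of the circadian clock, read 8.45, 8.34, 7.89, 8.47 and 8.65 in mixed tumours, against 10.08, 10.06, 9.97, 10.49 and 10.17 in Py117 and 10.55, 9.14, 8.95, 9.33 and 9.84 in Py8119 tumours. All 5 mixed tumours lay below all 10 parental tumours, and Py8119 tumours spread widely. The departure was -1.59 ± 0.20, or 0.333 of the 1:1 level (adjusted p = 4.7e-05). Mixed minus Py117 tumours was -1.80 (adjusted p = 7.6e-06) and mixed minus Py8119 tumours was -1.20 (adjusted p = 0.0074).

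Depp1, a protein of autophagy that FOXO factors induce, is not a member of this list. Its signals were 5.91, 5.67, 5.97, 5.86 and 6.15 in mixed, 7.03 to 7.75 in Py117 and 6.30 to 6.83 in Py8119 tumours. It too was below all parental tumours, with a departure of -1.08 ± 0.12 (adjusted p = 1.5e-05). Tsc22d3, the glucocorticoid-induced leucine zipper, read 7.17, 7.17, 6.84, 6.78 and 7.37 in mixed, 7.71 to 7.99 in Py117 and 7.26 to 7.93 in Py8119 tumours, overlapping Py8119 by 1 tumour. It departed by -0.69 ± 0.11 (adjusted p = 0.00056). At the estimated share the departure was -1.40 for Per1 (adjusted p = 0.041) and -0.76 for Depp1 (adjusted p = 0.044). Both of these calls ended without any single mixed tumour (adjusted p = 0.059 to 0.19) and without Py117 tumour 2 or 5 (adjusted p = 0.086 and 0.075). Without a Py8119 tumour, the call of Depp1 ended for each of the 5 and that of Per1 for tumours 2, 4 and 5.

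Other members departed in the same direction. Zbtb16, a zinc finger repressor, departed by -1.13 ± 0.13 (adjusted p = 1.3e-05) and Klf9, a Krüppel-like factor, by -0.92 ± 0.16 (adjusted p = 0.0011). Angptl4, an inhibitor of lipoprotein lipase, departed by -0.995 ± 0.18 (adjusted p = 0.0014). Dusp1, a phosphatase of MAP kinases, read 7.29 to 7.74 in mixed, 8.15 to 8.64 in Py117 and 7.39 to 8.12 in Py8119 tumours, with a departure of -0.73 ± 0.12 (adjusted p = 0.00043). Bhlhe41, a clock repressor and line gene, departed by -1.39 ± 0.14 (adjusted p = 4.2e-06). Of 15 clock genes, 3 were called below and none above, and of 17 immediate early genes 1, or 20% and 5.88% called below against 9.17% of all genes. Per1 had the lowest departure of both the clock and the glucocorticoid list, so these lists share members.

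Few genes were called outside both parental groups, though the mixed mean by itself often lay there. It was above both parental means at 4663 of 22180 genes and below both at 7493. Among genes called above the 1:1 level it was above both at 862 of 1275. Among genes called below that level it was below both at 902 of 2033. A gene outside both cannot be placed by any mixing share of the parental levels. An intersection-union test of mixed against each parent, adjusted over all genes, called none above and none below. At an unadjusted p under 0.05 there were 218 above (0.983%) and 398 below (1.79%). When each comparison was called on its own, 8 genes were above both parents (0.0361%) and 15 below (0.0676%), a rule added after the data were seen. The 8 included Xcl1, Cd48, Abcg3, Pik3cd, Tec, Creld2 and Sdf2l1, and the 15 included Per1, Depp1 and Tsc22d3. By values alone, all 5 mixed tumours were above all 10 parental tumours at 39 genes (0.176%) and below them at 44 (0.198%).

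The largest departures above the 1:1 level were not list members for the most part. Nppb, the precursor of B-type natriuretic peptide, read 6.79, 7.59, 8.59, 7.33 and 6.54 in mixed, 4.58 to 5.13 in Py117 and 5.80 to 6.81 in Py8119 tumours. Mixed tumour 3 was again the highest, and the 2 lowest mixed tumours fell within the Py8119 range. The departure was 1.58 ± 0.26, or 2.98 of the 1:1 level (adjusted p = 0.00055). Serpinb2, the plasminogen activator inhibitor PAI-2, read 5.74, 6.51, 6.80, 5.81 and 5.16 in mixed, 3.48 to 5.57 in Py117 and 4.74 to 5.25 in Py8119 tumours, with a departure of 1.17 ± 0.28 (adjusted p = 0.0088).

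Cth, cystathionine gamma-lyase of cysteine synthesis, read 7.50, 7.60, 8.74, 7.34 and 7.41 in mixed, 5.38 to 6.26 in Py117 and 6.85 to 7.30 in Py8119 tumours. All 5 mixed tumours were above all parental tumours, with a departure of 1.14 ± 0.20 (adjusted p = 0.0011). Slc7a11, the cystine transporter, departed by 0.94 ± 0.27 (adjusted p = 0.024), a call that ended without mixed tumour 3 (adjusted p = 0.071). Rabggtb, a subunit of the enzyme that prenylates Rab proteins, departed by 1.16 ± 0.22 (adjusted p = 0.0018), with 10.51, 10.25, 9.91, 9.66 and 9.35 in mixed, 7.55 to 8.47 in Py117 and 8.48 to 9.68 in Py8119 tumours. Of 74 small nucleolar RNA genes, 6 were called above and 1 below (8.11% and 1.35%, against 5.75% and 9.17% of all genes), with a median of 0.30.

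The largest departures below were genes high in Py117 tumours. Retnla, a secreted protein of alternatively activated macrophages in mice, read 5.84, 7.62, 8.76, 6.12 and 4.49 in mixed, 10.23, 10.10, 9.51, 7.58 and 12.01 in Py117 and 3.86 to 6.27 in Py8119 tumours. It varied widely within mixed and Py117 tumours, and its departure of -2.99 ± 0.76 (adjusted p = 0.013) lost its call without Py117 tumour 5 (adjusted p = 0.055), with the adipocyte level in the fit (0.164) and against the log2 midpoint (0.41). Slc28a3, a nucleoside transporter, read 5.54, 5.99, 5.87, 5.59 and 5.78 in mixed, 7.89 to 10.19 in Py117 and 5.17 to 5.43 in Py8119 tumours. Mixed tumours lay just above Py8119, with a departure of -2.94 ± 0.31 (adjusted p = 8.4e-06). Scgb1c1, a secretoglobin, departed by -2.55 ± 0.45 (adjusted p = 0.001), a call lost with the adipocyte level in the fit (adjusted p = 0.071), and mixed and Py8119 tumours were both under the background level of 5.31. Capn6, a calpain-family protein without protease activity, departed by -2.18 ± 0.20 (adjusted p = 2.6e-06), but by -0.08 against the log2 midpoint (adjusted p = 0.79).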

How the data were processed

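RNA of 21 samples was hybridised to Affymetrix whole-transcript arrays, per the labels' protocols. Per the submitters' processing notes the authors used RMA and limma (no versions given), and the deposited table holds log2 signal per probe set. Neither a batch nor a date is given in the labels, so no batch was examined. Precision is limited by the number of arrays.

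Of 41345 probe sets, 23521 had 1 gene symbol, 1814 several and 16010 none. Only those with 1 symbol were used, since the others cannot be given to a gene. Where a gene had several (1082 genes), the probe set of highest mean across all 21 arrays stood for it, which gave 22180 genes. Symbols came from the platform annotation, and 22139 genes matched the RefSeq table (GRCm38.p6), from which upstream sequences were read.

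The 15 tumour arrays were fitted with limma 3.58.1 in R 4.3.3 (lmFit, eBayes, 17.3 degrees of freedom in all), with 3 group means and no covariate. The expected level was log2 of the mean of the linear group means of Py117 and Py8119 tumours. Its error was carried by the delta method, each parent weighted by its part of the expected level. Tests were two-sided, with Benjamini-Hochberg adjustment over all genes. Gene lists (35 lists, 705 entries, 641 measured) are described by counts and medians without a test. The procedure was tested on simulated data before use.

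Named genes were the 10 largest called departures on each side of the 1:1 level with all 5 mixed tumours on that side, up to 4 called genes of each list with the largest departures, and genes listed beforehand. Predicted genes, small RNAs, pseudogenes, receptors and genes at background were left out of the first rule, and the text names a part of these genes, chosen after their values and their behaviour under the alternatives were seen. A rule for genes outside both parents found none. Genes called at the estimated share or in each comparison on its own, and Igtp and Irgm2, were named after their values were seen. Members and lists were chosen with earlier results of these data known. Replicate numbers were not used for pairing, as the labels state none. Same-numbered tumours of different groups had deviations from their group means that correlated between -0.23 and 0.26, with 3 of 15 pairs over 0.1. Those 3 were all pairs of a mixed and a Py117 tumour. For numbers 1 to 5 these pairs gave 0.16, 0.09, 0.26, 0.18 and -0.05. Pairs of mixed and Py8119 tumours gave -0.23 to -0.03. A factor shared by same-numbered tumours was not tested. Alternatives were other normalizations, filters, expected levels, fits and thresholds, and leaving out each tumour in turn. Plots used Python 3.11.15 and matplotlib 3.10.9.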

Additional observations from a re-analysis of the deposited data

Results flagged for a closer look

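For the genes named in the report, 271 groups of 5 tumours were examined for a tumour that stood apart, by Dixon's criterion at the 95% level, and 13 had one. Chance sets apart about 1 in 20 groups. Of the 13, mixed tumour 3 accounted for 3, all on the high side: Ifit1 read 8.92, against 7.95 to 8.10 in the other mixed tumours. Ccl2 read 10.68, against 9.98 to 10.16 there, and Cth read 8.74, against 7.34 to 7.60. Mixed tumour 1 was low for Esrp1 at 7.32, against 7.93 to 8.18, and mixed tumour 4 was high for Foxp3 at 6.05, against 5.83 to 5.86.

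Among Py117 tumours, tumour 3 was low for Dsp at 9.03, against 9.50 to 9.59 in the others, tumour 4 was low for S100a4 at 7.27, against 7.63 to 7.73, and tumour 5 was high for Cd14 at 9.96, against 9.38 to 9.55. Among Py8119 tumours, tumour 1 was high for Plet1 at 7.87, against 7.46 to 7.52, and for Slc7a11 at 5.88, against 4.93 to 5.07, and low for Capn6 at 5.54, against 5.80 to 5.88. Py8119 tumour 4 was high for Eln at 7.39, against 6.67 to 6.87, and for Col14a1 at 7.02, against 6.69 to 6.78. No cause was tested for these values.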

How the results depend on the processing

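Of 2805 values of named genes under other settings, 2619 kept their direction and their side of the threshold, 154 fell short of it, 12 passed it and 20 changed sign. The cause was not tested in any of these. At a threshold of 0.01, 504 genes were above and 1052 below the 1:1 level, and 0 and 0 were called at the estimated share. With the expected level taken as a fixed number without error, 2762 were above and 4456 below the 1:1 level, and 532 and 1071 departed at the estimated share. The calls at the estimated share also changed with the fit: 0 above and 0 below with an intensity trend and robust prior, 76 and 46 with array weights, 26 and 5 with 1 fit of all 21 arrays, and 0 and 1 with the adipocyte level as a covariate. They were 77 and 7 when parents were mixed on the log2 scale. With geometric group means 1 was below, and with the linear mean of mixed tumours 14 were above. With the replicate number as a block 1142 genes were above and 1872 below the 1:1 level. At the estimated share 29 were then above and 2 below. The labels state no pairing by number, and a factor shared by same-numbered tumours was not tested. Under that block AW112010 was called above the 1:1 level (adjusted p = 0.025). Calling each comparison on its own, added after the data were seen, gave 8 genes above and 15 below both parents, against 0 and 0 for the intersection-union test with limma. The signal share was 75.4% on the log2 scale and 93.6% from genes high in Py8119 cells.

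Leaving out 1 tumour at a time gave 815 to 1497 genes above and 1460 to 2381 below the 1:1 level, 0 to 50 above and 0 to 12 below at the estimated share, 0 outside both parents and shares of 87.3% to 88.1% (parental tumours left out). Signs changed for genes that did not pass the test, other than Epcam (0.036), Esrp1 (0.13) and Serpinb5 (0.40) against the log2 midpoint. There Cd8a gave 0.23, Igtp 0.76 and Irgm2 0.58. With the adipocyte covariate Cxcl9 gave -0.13, Cxcl10 -0.22, Iigp1 -0.43 and Cd8a 0.16, and with geometric means Cd8a gave 0.029. Over the fits without 1 tumour, Iigp1 ranged from -0.22 to 0.29, B2m from -0.026 to 0.042, Igtp from -0.50 to 0.21 and Cd8a from -0.26 to 0.14. Bulk RNA and 5 tumours per group limit what can be told apart, and values at the top of the signal range or at background are less certain.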
